A study of Mus musculus with 2 samples.

Results

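The interferon-inducible p200 genes are a block of paralogs on mouse chromosome 1. The members described here are Ifi203, Ifi204, Ifi207, Ifi208, Mndal and Aim2, 6 genes, of which 5 are among the 20886 that a probe was matched to. They were chosen by their place in this family and by differences between these same 2 arrays that were already known, so their values are a description and no test is made on them. Members were found by matching each probe's RefSeq accession, without its version, to a gene table. That gave 9 probes for 5 genes, each flagged by the scanner software as well above background on both arrays, and no probe was matched to Ifi203, which therefore has no value here. In all, 15495 genes were measured on both arrays.

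Whole lung was profiled on 1-colour Agilent arrays 14 days after bleomycin at 1.25 mg/kg, given into the trachea. The drug injures the alveoli and leaves scars. One sample was labelled as lung of C57BL6/N males, 6 weeks old, with heat shock protein 27 (HSP27, the product of Hspb1) overexpressed from a transgene, and the other as lung of C57BL6/N males of the same age without it. Both received bleomycin, and no untreated lung was analysed here. The labels name neither the promoter nor the species of the transgene, nor whether a sample is 1 animal or a pool. With 1 array per group, n = 1 for every value, how much animals of 1 group vary is unknown, and no p-value is given.

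Before the p200 values, 2 checks of the labels were made. Hspb1 itself read 53554 on the transgenic array and 41040 on the C57BL6/N array, a log2 difference of 0.24 at a mouse probe that may not read the transgene. Both samples were labelled male, yet Xist was detected in the C57BL6/N sample alone. Of its 2 probes, that with the highest bound was at least 46.3-fold higher there. Ddx3y, Eif2s3y and Uty, genes of the Y chromosome, were higher on the transgenic array by 1.91 to 2.11 on the log2 scale. They were detected in C57BL6/N lung too, at 508, 800 and 17.1, against 2437, 3338 and 72.5 in transgenic lung. Kdm5d, also of the Y chromosome, was detected in transgenic lung alone, with a bound of 1.03-fold. So C57BL6/N lung held signal of Xist and of Y chromosome genes alike, and the sexes in each sample were not tested. The flag for signal above background was set for 69.4% of 39429 probes in transgenic and 69.3% in C57BL6/N lung. The part of these differences in the p200 values was not tested.

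Proteins of the p200 family pair, in various combinations, a pyrin domain, which binds other pyrin domains, with HIN domains, which bind DNA. Interferons induce many of these genes, chiefly in myeloid and lymphoid cells. AIM2 senses double-stranded DNA in the cytosol and assembles an inflammasome through the adaptor ASC (Pycard) and caspase 1 (Casp1). Ifi204 encodes p204, a mouse counterpart of human IFI16 that acts in DNA sensing and in the control of growth and differentiation.

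Promoters are shown for 2 pairs of near copies, Ifi208 with Ifi213 and Ifi207 with Ifi211, because the first pair differed between the arrays in opposite directions and the second in the same direction. Ifi202b is shown because it was detected in the transgenic lung alone. Each sequence, from RefSeq with build GRCm38.p6, runs 5′ to 3′ on the strand of its transcript, from 250 bases before the start to 50 after it. They lie at chr1:173673415-173673714 (plus strand), chr1:173599223-173599522 (minus), chr1:173741760-173742059 (minus), chr1:173912997-173913296 (minus) and chr1:173982795-173983094 (minus). Capitals mark matches to GAAANNGAA, the core of the interferon-stimulated response element, in the first 4, and to TTCNNNGAA, the core of the gamma-activated site, in Ifi202b.
Ifi208: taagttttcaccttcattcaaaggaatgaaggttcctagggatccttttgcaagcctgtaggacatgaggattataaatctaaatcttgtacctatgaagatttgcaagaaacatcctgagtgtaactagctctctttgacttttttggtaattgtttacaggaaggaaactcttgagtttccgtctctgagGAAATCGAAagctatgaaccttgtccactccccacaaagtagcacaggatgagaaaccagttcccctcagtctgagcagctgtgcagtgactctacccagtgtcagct
Ifi213: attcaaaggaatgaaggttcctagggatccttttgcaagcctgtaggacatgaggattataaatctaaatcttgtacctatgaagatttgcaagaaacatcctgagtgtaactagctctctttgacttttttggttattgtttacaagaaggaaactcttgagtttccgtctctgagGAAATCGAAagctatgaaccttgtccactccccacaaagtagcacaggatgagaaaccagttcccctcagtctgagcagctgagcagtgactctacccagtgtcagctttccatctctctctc
Ifi207: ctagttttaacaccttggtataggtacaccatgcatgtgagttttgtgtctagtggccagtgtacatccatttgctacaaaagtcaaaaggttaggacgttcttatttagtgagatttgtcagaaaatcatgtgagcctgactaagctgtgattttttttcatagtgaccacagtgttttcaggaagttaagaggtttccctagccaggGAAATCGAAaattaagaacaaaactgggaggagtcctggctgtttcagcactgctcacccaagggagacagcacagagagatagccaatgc
Ifi211: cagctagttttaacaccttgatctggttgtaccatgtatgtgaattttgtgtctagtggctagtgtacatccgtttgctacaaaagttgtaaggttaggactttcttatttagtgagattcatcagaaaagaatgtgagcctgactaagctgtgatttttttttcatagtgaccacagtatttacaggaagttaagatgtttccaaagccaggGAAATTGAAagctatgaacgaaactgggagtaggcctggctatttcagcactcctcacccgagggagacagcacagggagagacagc
Ifi202b: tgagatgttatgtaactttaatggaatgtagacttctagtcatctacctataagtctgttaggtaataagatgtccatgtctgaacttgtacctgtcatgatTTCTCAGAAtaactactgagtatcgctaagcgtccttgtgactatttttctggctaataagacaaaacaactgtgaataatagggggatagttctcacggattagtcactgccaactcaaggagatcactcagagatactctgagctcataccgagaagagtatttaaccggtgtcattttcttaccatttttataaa

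The members did not differ in 1 direction. Ifi208 was lower in the transgenic lung at each of its 4 probes, Ifi204 and Ifi207 were higher, and Mndal and Aim2 lay within 1.5-fold. At that threshold 2 of 5 measured members were higher and 1 lower, whereas 10.2% of all 15495 measured genes were higher and 8.31% lower. At 2-fold 0 of the 5 were higher and 1 lower, beside 3.81% and 1.87% of all genes. By probe, 3 of 9 passed 1.5-fold upwards and 4 downwards, beside 9.94% and 9.76% of 20360 usable probes with a gene symbol. The 4 are all of Ifi208 and the 3 are of Ifi207 and Ifi204, so they restate the gene results and are not separate observations. The shares over all genes and probes are printed as a background, since the choice of members used the same arrays. The median log2 difference of the 5 members, transgenic minus C57BL6/N after scaling each array by its 75th percentile of signal, was 0.05, against -0.04 over all measured genes. It is the value of Aim2, the member in the middle of the 5.

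**Figure D1:**
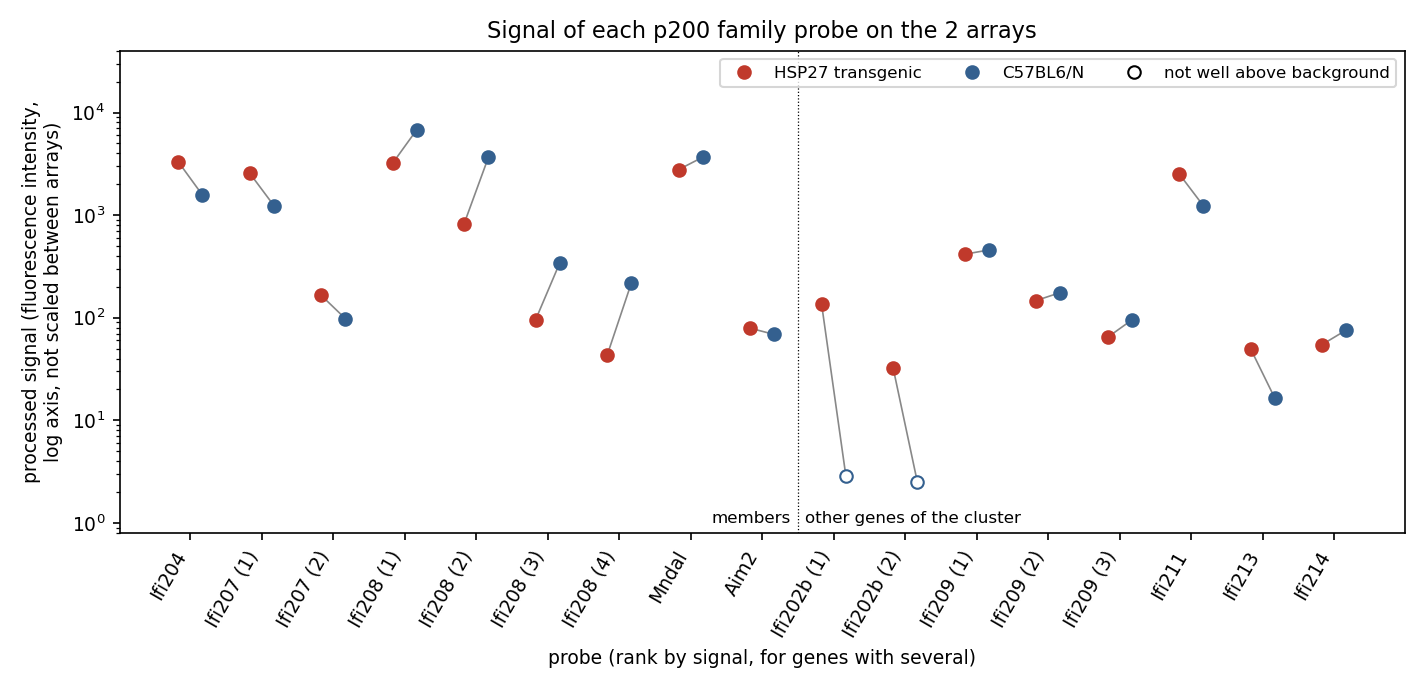
Processed signal (log axis, fluorescence intensity before scaling) of each p200 probe, with the HSP27 transgenic array to the left of the C57BL6/N array within each probe, 1 point per array. All 4 Ifi208 probes are lower on the transgenic array, those of Ifi204 and Ifi207 are higher, and both Ifi202b probes have open symbols (not well above background) for C57BL6/N lung. Heights of different probes are not comparable levels.

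Ifi208, listed also under the older symbol Pydc3, for a pyrin domain containing protein, had the largest difference of the members. Its brightest probe read 3202 on the transgenic array and 6823 on the C57BL6/N array. The next read 823 in transgenic lung and 3660 in C57BL6/N lung. Both are lower on the transgenic array, the second by more.

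The 2 dimmer Ifi208 probes read 95.4 and 42.9 in transgenic lung, against 345 and 218 in C57BL6/N lung. In order of signal the 4 log2 differences were -1.24, -2.30, -2.00 and -2.50. The mean was -2.01, 4.03-fold lower in transgenic lung. It was the 16th lowest of all 15495 measured genes, and the second lowest of 97 genes with at least 4 usable probes.

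Ifi208 was lower at every probe, but the size depended on the probe. With the brightest probe alone the difference was -1.24, and without it -2.27, a setting added after the data were seen. The technical SD of a difference, from probes printed in 10 spots, was 0.15 among the 105 dimmest of such probes, 0.06 among the 105 of middle signal and 0.05 among the 105 brightest. Each Ifi208 difference exceeded it, although it holds no variation between animals. Probe sequences were not analysed here, so which transcripts of the gene or of its near copies each probe reads was not tested.

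Ifi204, the gene of p204, was higher in the transgenic lung. Its single probe read 3325 in transgenic lung and 1570 in C57BL6/N lung, a log2 difference of 0.93 (1.91-fold). That difference lay above those of 95.6% of measured genes.

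Ifi207 was higher at both probes. The brighter read 2570 on the transgenic array and 1237 on the C57BL6/N array, and the dimmer 165 in transgenic lung and 97.9 in C57BL6/N lung. The log2 differences were 0.91 and 0.61, with a mean of 0.76 (1.69-fold). The dimmer probe stood just past 1.5-fold.

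The brighter Ifi207 probe and the probe of Ifi211 gave nearly the same signals. The Ifi211 probe read 2532 in transgenic lung and 1233 in C57BL6/N lung, within 2% of the Ifi207 probe on both arrays. Besides it, 2 probes of other genes (Pdlim4 and Nfil3) lay as close to the Ifi207 probe. Whether the Ifi207 and Ifi211 probes share a target was not tested, and the 2 differences cannot be counted as separate measurements. Of the usable family probes, none but this pair had another family probe within 2% on both arrays.

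Mndal, for a nuclear protein of the family named after its likeness to human MNDA, was lower by less than 1.5-fold. Its probe read 2776 in transgenic lung and 3676 in C57BL6/N lung, a log2 difference of -0.55. Aim2, the inflammasome sensor, was nearly level. Its probe read 79.0 in transgenic lung and 68.6 in C57BL6/N lung, a log2 difference of 0.05 after scaling, inside the technical SD of 0.15 for probes of that brightness.

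The rest of the cluster was as mixed. The gene table places 8 further family genes there, of which Ifi205, Ifi206 and the pseudogene Ifi203-ps had no matched probe. Of 4 measured on both arrays, Ifi213 and Ifi211 were at least 1.5-fold higher and Ifi214 at least 1.5-fold lower. Members and these relatives together gave 4 of 9 higher and 2 of 9 lower, beside 10.2% and 8.31% of all genes. The 4 include both Ifi207 and Ifi211, which have the near-equal probes and may not be separate calls.

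Ifi213, listed also as Pydc4, read 49.9 in transgenic lung and 16.4 in C57BL6/N lung, a log2 difference of 1.46. The C57BL6/N signal was close to the dimmest one flagged as measured on that array, 11.9, and with a normexp background correction the difference was 0.35. Ifi211, the bearer of the older mouse symbol Mnda, was at 0.89. The higher value of Ifi213 thus rests on a dim probe. The normexp setting also adds an offset of 50, which shrinks the differences of dim probes whatever the background correction does. The parts of the offset and of the correction in the fall to 0.35 were not told apart. Ifi213 was at 1.51 with both median scaling and quantile normalization, and at 1.58 with cyclic loess.

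Ifi214 read 54.7 in transgenic lung and 75.9 in C57BL6/N lung, a log2 difference of -0.62. It came to -0.34 after normexp with the same offset, -0.48 after cyclic loess, and -0.57 after both median scaling and quantile normalization, each inside 1.5-fold. Ifi209, known also as Pyhin1, was lower at each of 3 probes. They read 415, 147 and 64.3 in transgenic lung against 457, 176 and 95.1 in C57BL6/N lung, and the log2 differences were -0.29, -0.41 and -0.71. The dimmest probe passed 1.5-fold, and the mean of -0.47 did not.

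Ifi202b was found on the transgenic array alone. It encodes p202, a family protein without a pyrin domain that restrains AIM2. Its probes read 136 and 32.6 in transgenic lung, against 2.87 and 2.50 in C57BL6/N lung, where neither was well above background. Set against the dimmest signal with that flag on the C57BL6/N array, the brighter probe was at least 10.3-fold higher in transgenic lung and the dimmer one by 2.46-fold or more. As background, inbred mouse strains are known to differ in the gene content and expression of this cluster, and C57BL/6 mice are known for little p202. The labels give C57BL6/N as the strain of both samples, and whether the arrays differ in the origin of the cluster was not tested.

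**Figure D2:**
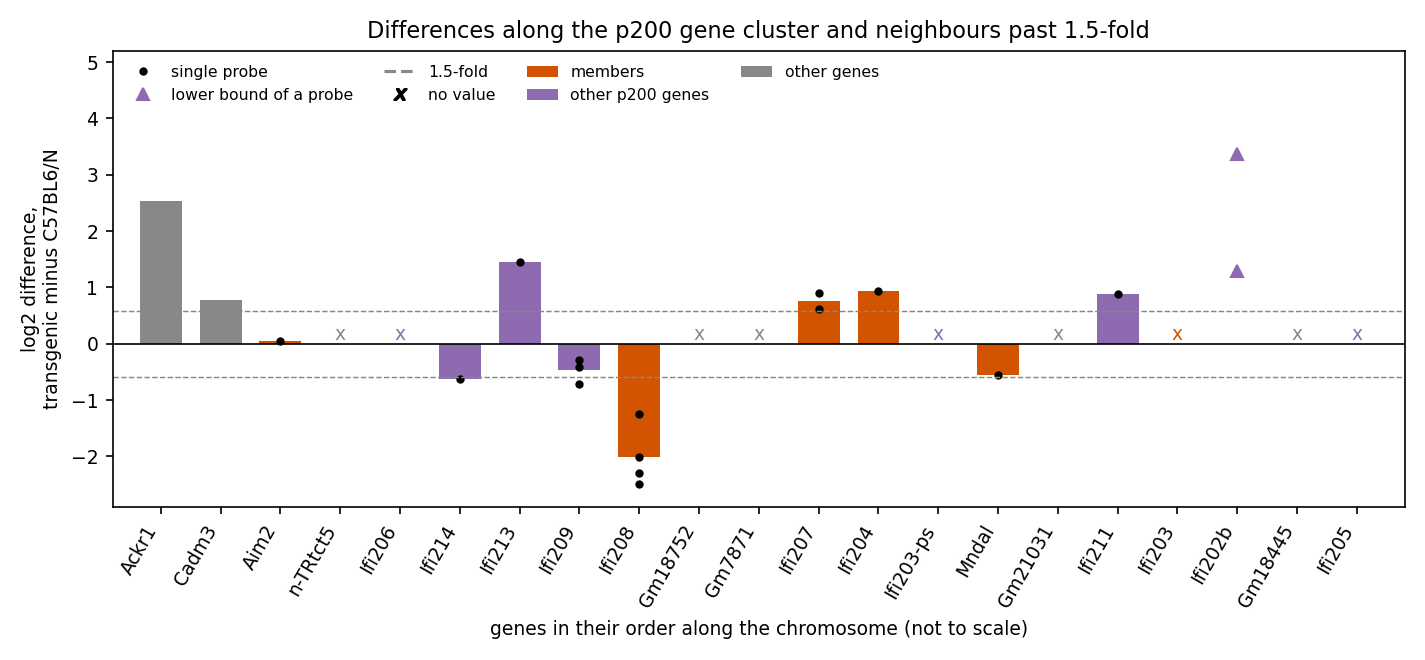
Log2 difference (transgenic minus C57BL6/N) of the genes of the cluster, and of flanking genes past 1.5-fold, in their order along chromosome 1, as bars, with single probes of family genes as points, the bounds of the 2 Ifi202b probes as triangles and 1.5-fold as dashed lines. Higher and lower genes are interspersed through the cluster, from Ifi213 at 1.46 through Ifi208 at -2.01 to Ifi204 at 0.93 and Mndal at -0.55.

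Differences did not run in 1 direction along the chromosome either. Ifi213 (1.46) and Ifi208 (-2.01) are separated by Ifi209 (-0.47) alone, and Ifi204 (0.93) lies between Ifi207 (0.76) and Mndal (-0.55) among genes with a value. In the block from Aim2 to Ifi205 the table lists 5 genes outside the family, of which 0 had a matched probe. Of 30 genes flanking the block, 15 on each side and many of them olfactory receptors, 18 had a probe and 3 were measured on both arrays.

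Of those 3 flanking genes, Ackr1 and Cadm3 passed 1.5-fold upwards and 0 downwards. Ackr1, a chemokine-binding receptor of red cells and venules, read 463 in transgenic lung and 72.0 in C57BL6/N lung, a log2 difference of 2.54. Cadm3, a cell adhesion molecule, was at 0.77 and dim, at 39.0 in transgenic lung and 20.6 in C57BL6/N lung. Over a wider range, set after the data were seen, 5 of the 25 nearest measured genes before the block were higher by that threshold and 0 lower. Of the 25 after it, 2 were higher and 0 lower. Over all measured genes those shares were 10.2% and 8.31%, so with 25 genes a side few calls in either direction would be found at the background share. The median log2 difference was 0.34 for the 25 genes before the block and -0.14 for those after it, against -0.04 over all measured genes.

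Promoters of near copies were compared with these directions. For 12 family genes with a promoter sequence, the first listed start of each was aligned from end to end. At least 80% identity was found in 4 of 66 pairs. Near copies whose listed starts are offset score low in such an alignment, so this is not a count of all near copies. Mndal and Ifi203 came to 46.0%, although the second start of Ifi203 shares a long run of letters with the first of Mndal. Ifi214 and Ifi209 were 95.3% identical, Ifi213 and Ifi208 89.5%, Ifi206 and Ifi208 87.5%, and Ifi207 and Ifi211 85.9%. The median of all 66 pairs was 48.8%. Family promoters against those of 20 neighbouring genes reached at most 50.8%, with a median of 46.6%.

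Of the 3 close pairs with both genes measured, 2 had differences of the same sign. They were -0.62 for Ifi214 and -0.47 for Ifi209, and 0.76 for Ifi207 and 0.89 for Ifi211, the pair whose near-equal probes cannot be counted as separate measurements. In the pair Ifi213 (1.46) and Ifi208 (-2.01), whose sequences are printed above, the signs were opposite. With 3 pairs this is a description, and the promoters are those of the reference genome, not of these animals.

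**Figure D3:**
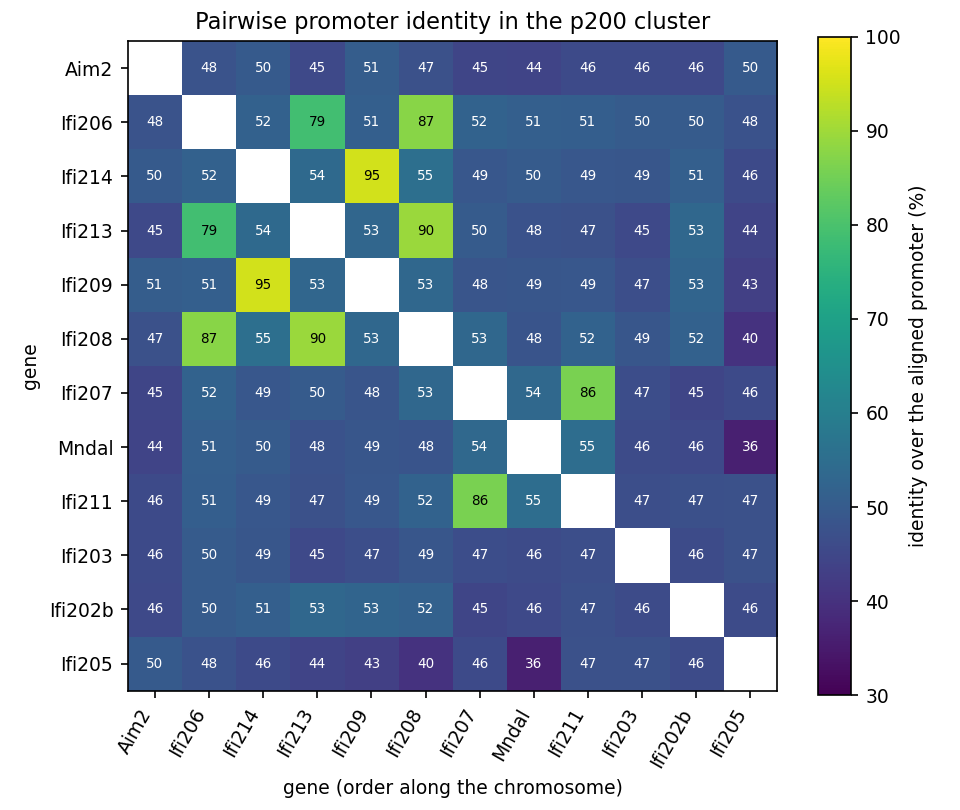
Percent identity of aligned promoters (300 bases, first listed start of each gene) for each pair of 12 p200 genes in chromosome order, by colour and number. Bright cells pick out Ifi214 with Ifi209, Ifi206, Ifi213 and Ifi208 with each other, and Ifi207 with Ifi211, against a median of 48.8%. Near copies whose first listed starts are offset have low values.

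A response element core was found in most of these promoters. GAAANNGAA, sought on both strands, occurred in 5 of 7 promoters of members and in 10 of 14 of members and relatives, against 8.56% of all 32851 promoters of the same length. Several of the 14 are near copies of each other, and Mndal and Ifi203 are counted at 2 overlapping starts each. The 14 are therefore not separate occurrences, and the share over all promoters is printed as a background alone. Promoters of Ifi204 and Ifi203-ps were not analysed here. TTCNNNGAA, which reads the same on both strands, occurred in 1 of the 14, that of Ifi202b, against 8.30% of all. In 9 of the 10 promoters the response element core began within 80 bases before the start, and in that of Ifi205 at 134 bases before it.

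In 7 of the 14 promoters the core has the letters GAAATCGAA. Among them are that of Ifi208, 58 bases before its start, and those of Ifi213 at 73 and Ifi207 at 41. In Ifi211 they are GAAATTGAA, at 37 bases. Both starts of Mndal and 1 of the 2 starts of Ifi203 have a response element core, whereas the promoters of Aim2, Ifi209 and Ifi202b have none in this window. So a core was present in the promoter of the lower Ifi208 and in those of the higher Ifi207, Ifi211 and Ifi213 alike. A match is a run of letters and not evidence of binding.

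**Figure D4:**
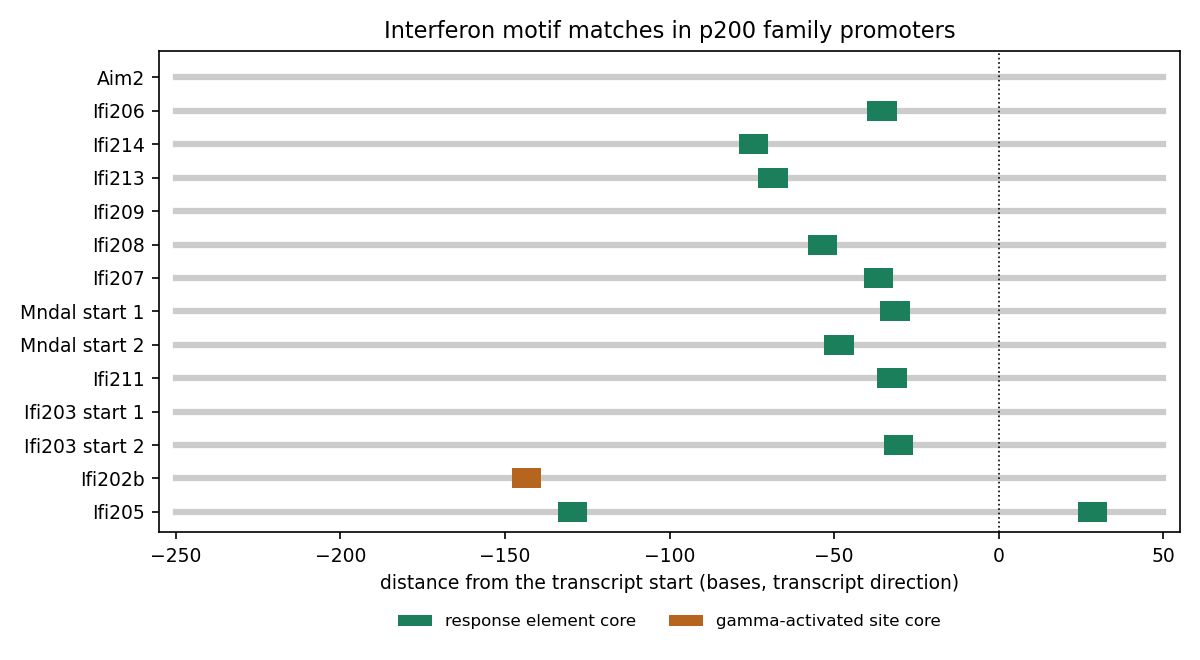
Matches to the response element core (GAAANNGAA) and the gamma-activated site core (TTCNNNGAA) as boxes on 14 promoters of 12 p200 genes, from 250 bases before to 50 after each transcript start (dotted line). Most response element cores sit within 80 bases before the start, and the promoter of Ifi202b holds the single gamma-activated site core.

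The inflammasome around Aim2 was compared as a list of 20 genes. Of 19 with a value in each lung, 5 passed 1.5-fold upwards in transgenic lung and 0 downwards, with a median log2 difference of 0.08. The adaptor Pycard read 5339 in transgenic lung and 2962 in C57BL6/N lung, a difference of 0.70. Casp1 read 2414 in transgenic lung and 1285 in C57BL6/N lung, a difference of 0.76. Both stood higher in transgenic lung, while Aim2 itself was at 0.05. Naip2, a sensor partner of Nlrc4, was at 1.16 and Il1rn, the interleukin 1 receptor antagonist, at 0.97. The Il1rn probe was dim, at 67.2 in transgenic lung and 31.1 in C57BL6/N lung. The inflammasome products Il1b (-0.07) and Il18 (0.21) were within 1.5-fold.

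Among 23 genes of cytosolic DNA sensing, all measured, 6 were higher and 0 lower (median 0.03). Sting1, the adaptor of this pathway, was at 0.66, and Zbp1, a sensor of left-handed nucleic acid, at 0.59. Enpp1, which breaks down the messenger that activates STING, was at 1.11 and the kinase Ikbke at 0.69. Cgas, the enzyme that makes that messenger, was at -0.40. Enpp1 and Ikbke were dim, at 97.8 and 104 in transgenic lung, against 40.9 and 57.9 in C57BL6/N lung.

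Most type I interferon-stimulated genes lay within 1.5-fold. Of 39 measured, 31 did, 6 were higher and 2 lower, with a median of 0.05, and these counts are near the shares over all genes. Slfn1 was at 1.34, Oas3, a sensor of double-stranded RNA, at 1.14 and the transcription factor Irf7 at 0.98. The Slfn1 probe was dim, at 49.9 in transgenic lung and 17.7 in C57BL6/N lung. Slfn5 was at -0.77 and Cmpk2 at -0.67.

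Of 19 measured interferon-gamma responsive genes and GTPases, 5 were higher and 3 lower (median -0.15). The chemokines Cxcl10 (1.95) and Cxcl9 (1.61) and the guanylate-binding proteins Gbp4 (-1.51) and Gbp3 (-0.64) marked the extremes. Of 14 measured interferons, receptors and kinases, 0 were higher and 2 lower, the dim genes Ifna2 (-0.79) and Ifnk (-0.61). The shares of 10.2% and 8.31% over all genes are the background for each of these counts.

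**Figure D5:**
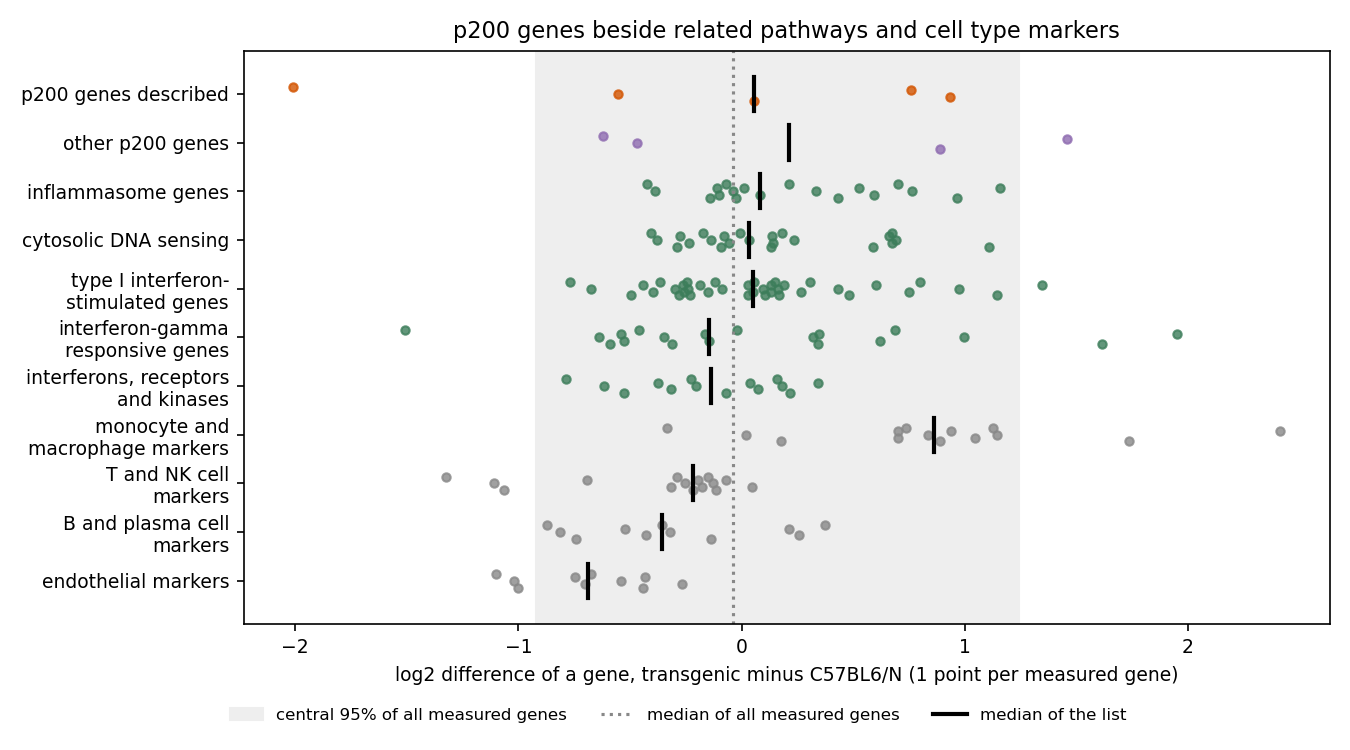
Log2 difference (transgenic minus C57BL6/N) of each measured gene as a point, by list, with the list's median as a black bar and the central 95% of all measured genes, -0.92 to 1.24, shaded. Ifi208 at -2.01 lies outside the shaded range below and Ifi213 at 1.46 above, and monocyte and macrophage markers have a median of 0.86. Ifi202b, with a bound alone, is not drawn.

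Markers of myeloid and lymphoid cells were compared between the same arrays. Over all measured genes 10.2% were at least 1.5-fold higher and 8.31% lower, the background for each count of markers. Of 14 measured monocyte and macrophage markers 11 passed 1.5-fold upwards in transgenic lung and 0 downwards, and Cd163 was detected there alone. Their summed level, in units of each array's 75th percentile of signal, was 77.6 in transgenic lung and 40.4 in C57BL6/N lung. For T and NK cells 0 of 15 were higher, 4 lower and 11 within 1.5-fold, with sums of 10.5 in transgenic and 14.8 in C57BL6/N lung, and for B and plasma cells 0 of 11 were higher and 3 lower, with sums of 39.3 in transgenic and 36.5 in C57BL6/N lung. Of the B cell markers, Pax5 was detected in C57BL6/N lung alone. Dendritic cell markers had 1 of 12 higher and 1 lower, near the shares over all genes, with sums of 32.2 in transgenic and 35.5 in C57BL6/N lung. In whole lung, fewer cells of a type and less RNA per cell cannot be told apart.

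The lowest T and NK cell markers were Ncr1 (-1.32), a receptor of NK cells, and Gzma (-1.11), a protease of cytotoxic granules. Ncr1 was dim, at 22.6 in transgenic lung and 51.0 in C57BL6/N lung. Ifi204 and Ifi207 differed in the direction of the monocyte and macrophage markers and Ifi208 in the opposite one, and the part of any of these cells in the differences was not tested. Markers of neutrophils (2 of 9 higher, 2 lower), endothelium (0 of 10 higher, 6 lower) and fibroblasts (5 of 8 higher, 0 lower) differed too. Over all genes 10.2% were higher and 8.31% lower. All 7 measured cardiac muscle markers, all 4 fat cell markers and all 5 basal cell markers were higher on the transgenic array. Their sums were 27.5, 29.3 and 3.75 in transgenic lung, against 3.51, 2.15 and 0.498 in C57BL6/N lung. Alveolar and bronchiolar markers, which define lung, were well above background on both arrays at 8 of 8 genes. Of these 0 were higher and 1 lower, with a median log2 difference of -0.31. Their sums were 650 in transgenic lung and 814 in C57BL6/N lung.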

How the data were processed

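The data are 2 samples, 1 array of HSP27 transgenic lung and 1 of C57BL6/N lung. Per the file headers, the deposited array files hold spot-level fluorescence intensity written by Agilent Feature Extraction 11.5.1.1, with background subtracted and trends removed by that software and no normalization between arrays. Other columns used are flags of that software, per the file headers. The series table, deposited as linear intensity, equalled the processed signal within 0.1% at all 39012 probes of 1 spot on both arrays.

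Control and outlier spots were left out, log2 signals of a probe's spots were averaged, and each array's 75th percentile (1426 for transgenic, 1287 for C57BL6/N lung) was subtracted. Probes well above background in at least 50% of spots and unsaturated on both arrays were usable, and a gene's value is the mean over them. Accessions were matched to a table of build GRCm38.p6, since the files name no genes. The array headers name mm9, so the table gave names and gene order alone. Of 39429 probes 27508 had a symbol and 26387 were usable. A probe well above background on 1 array has a bound, the brighter value over the higher of the other array's lowest such signal and its own signal there.

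The members and lists were chosen with earlier results of these data known. Named genes are every family gene, up to 2 highest and 2 lowest per list past 1.5-fold, and 9 fixed genes, of which 1 is not reported here. Pdlim4 and Nfil3 were named after their values were seen. Alternatives were normexp (offset 50, median signals, without spots whose local background reached their signal), median, quantile and cyclic loess scaling, 2 filters on dim probes, outlier spots kept, the brightest probe and the series table. Steps were tested on simulated data. Python 3.11.15, numpy 2.4.6, pandas 2.3.3, matplotlib 3.10.9, Biopython 1.88 for alignments, and R 4.3.3 with limma 3.58.1 were used. The number of arrays limits the precision.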

Additional observations from a re-analysis of the deposited data

Results flagged for a closer look

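Both Ifi202b probes gave signal outside the differences by gene, which need a value on both arrays. In transgenic lung they were at least 10.3-fold and at least 2.46-fold higher than in C57BL6/N lung, where neither was well above background. No replicate was available to check this, and its cause was not tested.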

How the results depend on the processing

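Each measured member kept its sign under each of 9 alternatives, but several of these could hardly change it. For Ifi204, Mndal and Aim2, with 1 probe each, the 2 filters and the brightest probe returned the same value. Keeping outlier spots and using the series table gave nearly the same values. The Ifi208 difference was -1.57 with normexp, whose offset of 50 shrinks the differences of dim probes. It was -1.85 with the stricter filter on dim probes and -1.24 with the brightest probe. Without its brightest probe, chosen after seeing the data, it was -2.27. Ifi207 was at 0.91 with the brightest probe and, in a setting also chosen afterwards, at 0.61 without the probe within 2% of the Ifi211 probe. Mndal was at -0.48 with normexp and -0.50 with median scaling. The number of relatives at least 1.5-fold lower, 1 in the values reported, was 0 with normexp, median scaling, quantile normalization and cyclic loess. The number at least 1.5-fold higher, 2 in the values reported, was 1 with normexp and 1 with the stricter filter. Of the remaining results that answer a comparison, 114 values moved by less than the technical SD or, for counts, by at most 1.5 times. They include the settings that could hardly change a gene of 1 probe. Causes were not tested. Neither array could be left out in turn, since a group would be empty. No paired analysis was possible because each group has 1 sample.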
